A study of Mus musculus with 6 samples.

Results

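Mesothelial genes were followed in lung tumors of 3 LC and 3 IP + LC mice. Msln, Upk3b, Upk1b, Lrrn4, Wt1, Gpm6a, Muc16 and Bnc1 were taken by their symbols from the deposited tables, and these 8 genes were found among the 31130 genes listed for each tumor. The mice were female C57BL/6 mice, 6 to 8 weeks old, of wild-type genotype. In both groups, cells of the Lewis lung carcinoma line, which had been labeled with enhanced green fluorescent protein, were injected through the pleura into the left lung on day 14, and the tumor was collected on day 21. On day 0, bleomycin (2.0 mg/kg), which injures the lung and leads to fibrosis, had been placed in the throat of the IP + LC mice and was aspirated, and the LC mice had received saline. Host lung, pleura and tumor cells were not separated before RNA extraction.

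The mesothelium is the sheet of flat cells that covers the lung as the visceral pleura and lines the chest wall, where it provides a slippery surface. Mesothelial cells share keratins with epithelium and transcription factors such as Wt1 with the embryonic mesoderm from which they derive, and after injury they can take on features of fibroblasts. None of the 8 genes is exclusive to this cell type. Msln and Muc16 are also made by several carcinomas, and Muc16 and Upk1b are found in other epithelia.

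The libraries counted unique molecular identifiers (UMIs) at the 3′ end of transcripts, so that a count is a number of molecules and is not scaled to transcript length. The LC libraries held 592733, 1379759 and 1356381 UMIs and the IP + LC libraries held between 1336919 and 1631066. Levels are given as counts per 1000000 UMIs after TMM scaling (CPM). The limit of detection was set at 3 UMIs. Before TMM scaling this equaled 5.06 counts per 1000000 UMIs in LC replicate 1 and 1.84 to 2.24 in the other 5 libraries. LC replicate 1 had the smallest library and stood apart from the other LC tumors, with a Pearson's r of 0.799 to 0.840 to them across genes against 0.962 between these. It also had the lowest share of mitochondrial UMIs, 3.84% against 4.40% to 12.0% in the others. The labels call the sample lung cancer cells, yet 6 type 2 alveolar markers, with the surfactant gene Sftpc among them, together reached 35000 to 43500 CPM in the LC tumors and 6220 to 11300 CPM in the IP + LC tumors. The tissue was not separated into cells, and a CPM is a share of the library. Fewer mesothelial cells, less RNA per mesothelial cell and more RNA from other cells therefore cannot be told apart.

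The summed UMIs of the mesothelial genes made up a smaller part of the IP + LC libraries, and single genes differed in how far they could be tested. The 8 genes together had 93, 429 and 335 UMIs in the LC tumors and 107, 102 and 120 UMIs in the IP + LC tumors. On the CPM scale the sums were 160, 336 and 284 for LC and 77.6, 59.5 and 87.1 for IP + LC, and the groups did not overlap. The sums averaged 260 ± 90.4 CPM and 74.8 ± 14 CPM (SD, n = 3), which is 3.48-fold lower, and with each tumor left out in turn the fold ran from 2.98 without LC replicate 2 to 4.12 without LC replicate 1. The difference between the groups was tested gene by gene with edgeR's quasi-likelihood test over 11240 genes, and genes with an adjusted p below 0.1 are called DEGs. Enough UMIs for this test were present for 5 of the 8 genes, and Wt1, Muc16 and Bnc1 were below the minimum. All 5 were called lower in IP + LC tumors (3 when LC replicate 2 or IP + LC replicate 2 was left out), against 19.6% of all tested genes called lower. Only Msln and Upk1b reached the minimum in every tumor of both groups, so the other 3 entered the test mainly through the LC tumors and the count of 5 carries no weight of its own.

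**Figure D1:**
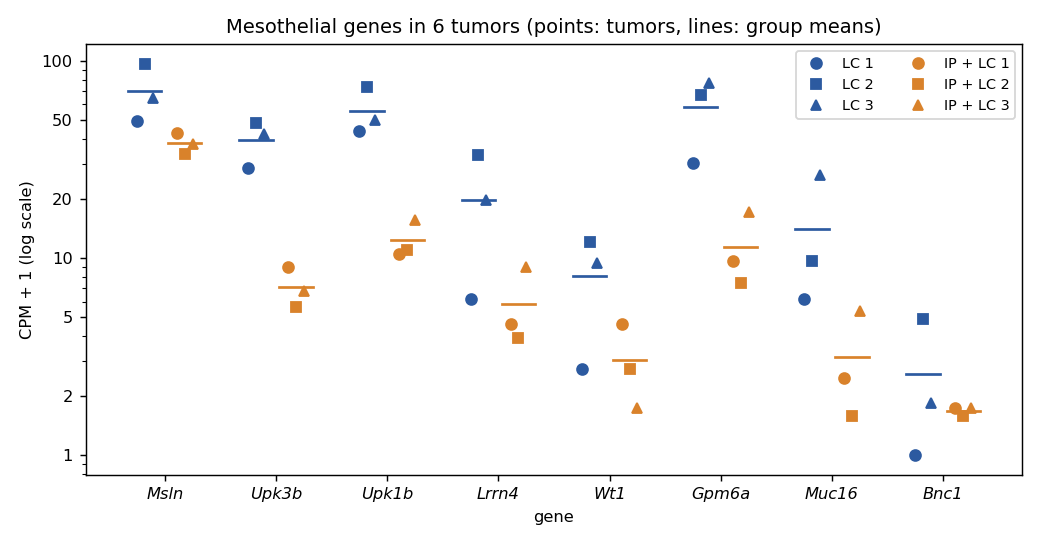
Levels of the 8 mesothelial genes as CPM + 1 on a log scale (y axis), by gene (x axis), with 1 point for each LC (blue) or IP + LC (orange) tumor and a line at each group mean. The groups do not overlap for Msln, Upk3b, Upk1b, Gpm6a and Muc16, they overlap for Lrrn4, Wt1 and Bnc1, and LC replicate 1 (blue circle) is the lowest LC tumor for 8 of 8 genes.

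Msln (ENSMUSG00000063011, chromosome 17 of GRCm38 from 25748613 to 25754378) encodes mesothelin, a glycoprotein anchored to the membrane by a lipid. It was the member with the most UMIs, at 48.2, 95.6 and 63.6 CPM in the LC tumors and 42.1, 32.7 and 37.0 CPM in the IP + LC tumors. All IP + LC tumors lay below all LC tumors, although the lowest LC tumor, replicate 1, and the highest IP + LC tumor, replicate 1, were close to each other. The group means were 69.1 ± 24.2 and 37.3 ± 4.69 CPM (SD, n = 3), with a log2 fold change of -0.92 ± 0.27 (SE, edgeR adjusted p = 0.0343). This call was lost without each of 3 single tumors, while the log2 fold change stayed negative. Without LC replicate 2, the log2 fold change of Msln was -0.61 (edgeR adjusted p = 0.153), without IP + LC replicate 2 it was -0.80 (adjusted p = 0.161) and without IP + LC replicate 3 it was -0.89 (adjusted p = 0.116).

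Muc16 (ENSMUSG00000109564, chromosome 9, 18495455 to 18674530) encodes the large membrane mucin known as CA125, which binds mesothelin. It had 3, 11 and 30 UMIs in the LC tumors and 2, 1 and 6 UMIs in the IP + LC tumors. On the CPM scale the LC tumors, at 5.17, 8.62 and 25.4, lay above the IP + LC tumors, at 1.45, 0.584 and 4.36, but LC replicate 1 and 2 of the IP + LC tumors were at or below 3 UMIs. In a fit without a filter on low counts, over 29423 genes, the log2 fold change of Muc16 was -2.58 (edgeR adjusted p = 0.000379), and 8.51% of all genes were called lower in that fit. Without LC replicate 3, the tumor with 30 UMIs, it was -1.69 and not called (adjusted p = 0.158 in the same fit). It was called without each of the other 5 tumors, with -3.56 without IP + LC replicate 3 (edgeR adjusted p = 0.000392) and -2.80 to -2.08 without the others.

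The uroplakins are membrane proteins best known from the plaques of the bladder surface, and Upk3b and Upk1b are also made by mesothelium. Upk3b (ENSMUSG00000042985, chromosome 5, 136038496 to 136046487) had the largest change of the tested members in the fit with all tumors. Without IP + LC replicate 3, Gpm6a changed more, with a log2 fold change of -2.93 against -2.63 for Upk3b. Upk3b was at 27.6, 47.0 and 41.5 CPM in the LC tumors, from 16 to 60 UMIs. In the IP + LC tumors it was at 7.98, 4.67 and 5.81 CPM, from 8 to 11 UMIs. The groups lay far apart without overlap, and the means of 38.7 ± 10.0 and 6.15 ± 1.68 CPM (SD, n = 3) differed by 6.29-fold. The log2 fold change of Upk3b was -2.69 ± 0.32 (SE, edgeR adjusted p = 0.0012).

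Upk1b (ENSMUSG00000049436, chromosome 16, 38773184 to 38800328) belongs to the tetraspanins, a family of small membrane proteins. Its levels were 43.0, 72.1 and 49.2 CPM in the LC tumors and 9.43, 9.92 and 14.5 CPM in the IP + LC tumors. The groups were well separated, with means of 54.8 ± 15.3 and 11.3 ± 2.81 CPM (SD, n = 3), a log2 fold change of -2.30 ± 0.29 (SE, edgeR adjusted p = 0.00137). Other uroplakin genes, some of whose proteins form the bladder plaques together with Upk1b, were hardly present. Upk1a, Upk2, Upk3a and Upk3bl did not exceed 4 UMIs in any tumor.

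Gpm6a (ENSMUSG00000031517, chromosome 8, 54954843 to 55060871) encodes a membrane glycoprotein first known from neurons. It was at 29.3, 65.8 and 76.3 CPM in the LC tumors and at 8.70, 6.42 and 16.0 CPM in the IP + LC tumors. LC replicate 1 was again nearest to the IP + LC tumors, without overlap. The means were 57.1 ± 24.7 and 10.4 ± 4.99 CPM (SD, n = 3), and the log2 fold change was -2.53 ± 0.41 (SE, edgeR adjusted p = 0.00336). Its paralog Gpm6b, which is expressed in many cell types, also fell, from 74.2 ± 34.6 to 30.8 ± 4.90 CPM (SD, n = 3, log2 fold change -1.31, edgeR adjusted p = 0.0236). The groups overlapped for Gpm6b, with LC replicate 1 at 34.4 CPM and IP + LC replicate 2 at 35.0 CPM.

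Lrrn4 (ENSMUSG00000043110, chromosome 2, 132868305 to 132880891) encodes a membrane protein with leucine-rich repeats. It had 3, 41 and 22 UMIs in the LC tumors and 5, 5 and 11 UMIs in the IP + LC tumors. On the CPM scale LC replicate 1, at 5.17, fell inside the range of the IP + LC tumors, 2.92 to 7.99, while LC replicates 2 and 3, at 32.1 and 18.6, lay above it. The log2 fold change was -2.09 ± 0.59 (SE, edgeR adjusted p = 0.0287). The call for Lrrn4 was lost without LC replicate 2 (-1.47, edgeR adjusted p = 0.167), IP + LC replicate 1 (-1.89, 0.118) or IP + LC replicate 2 (-1.75, 0.142), while the log2 fold change stayed negative. Of all tested genes, 21.5% had all IP + LC tumors below all LC tumors, and Lrrn4 was the only one of the 5 tested members that did not. Upk3b, Gpm6a and Lrrn4 entered the test mainly through the LC tumors, and the members were chosen with results known. This count therefore carries no weight of its own either.

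Of the 2 transcription factors, neither had enough UMIs for the main test. Wt1 (ENSMUSG00000016458, chromosome 2, 105126529 to 105173616), a zinc finger protein that is required for the mesothelium and the organs derived from it in the embryo, had 1, 14 and 10 UMIs in the LC tumors and 5, 3 and 1 UMIs in the IP + LC tumors. LC replicates 2 and 3 were higher than every IP + LC tumor, and LC replicate 1 was not. In the fit without a filter, the log2 fold change of Wt1 was -1.76 ± 0.74 (SE, edgeR adjusted p = 0.104), just above the limit of 0.1. With 1 tumor left out it ran from -2.38 to -1.23, and Wt1 was called only without LC replicate 1 (-2.05, edgeR adjusted p = 0.00576), not without any of the other 5 tumors (adjusted p of 0.112 to 0.564). The antisense gene Wt1os had 0 UMIs in all tumors, which allows up to 5.06 CPM in LC replicate 1 and up to 1.84 to 2.24 CPM in the others.

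Bnc1 (ENSMUSG00000025105, chromosome 7, 81966672 to 81992292), a zinc finger protein of keratinocytes and germ cells that is also made by mesothelium, had 0, 5 and 1 UMIs in the LC tumors and 1 UMI in each IP + LC tumor. A difference of Bnc1 was not detectable at this depth (edgeR adjusted p = 0.577 without a filter), and the sign of its log2 fold change turned without LC replicate 2. Its relative Bnc2, which fibroblasts express, had 1, 12 and 21 UMIs in the LC tumors and 5 to 9 UMIs in the IP + LC tumors, so the groups overlapped.

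The promoters of members that were lower together are shown for the 3 genes whose window holds a match to GGAATG, the core motif bound by the TEAD factors of the Hippo pathway. The sequences are from RefSeq on GRCm38.p6 and run 5′ to 3′ on the strand of the gene, from 250 bases before the start to 50 bases after it, with GGAATG or its reverse complement CATTCC in capitals.
Upk3b, chr5:136038246-136038545, plus strand: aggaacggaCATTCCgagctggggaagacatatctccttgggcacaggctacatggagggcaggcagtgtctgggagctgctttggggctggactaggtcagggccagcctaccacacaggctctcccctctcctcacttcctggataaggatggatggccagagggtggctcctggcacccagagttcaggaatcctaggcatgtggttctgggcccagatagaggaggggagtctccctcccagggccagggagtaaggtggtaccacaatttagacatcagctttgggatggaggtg
Lrrn4, chr2:132880813-132881112, minus strand: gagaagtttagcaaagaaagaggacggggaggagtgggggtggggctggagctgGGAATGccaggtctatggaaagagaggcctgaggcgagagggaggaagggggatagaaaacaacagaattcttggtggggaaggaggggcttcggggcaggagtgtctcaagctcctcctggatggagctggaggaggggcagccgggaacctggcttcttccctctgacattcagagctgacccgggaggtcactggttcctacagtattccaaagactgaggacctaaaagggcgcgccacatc
Gpm6a, chr8:54779184-54779483, plus strand: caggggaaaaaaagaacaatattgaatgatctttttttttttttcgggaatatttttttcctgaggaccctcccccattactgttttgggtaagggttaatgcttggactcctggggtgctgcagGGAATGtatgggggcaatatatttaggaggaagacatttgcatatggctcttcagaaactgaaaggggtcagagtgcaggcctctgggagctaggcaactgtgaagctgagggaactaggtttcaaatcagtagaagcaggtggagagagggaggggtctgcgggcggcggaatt
The match begins at position -241 from the start in Upk3b, -196 in Lrrn4 and -125 in Gpm6a. The Gpm6a window belongs to a RefSeq start that lies upstream of the GENCODE gene, and the other RefSeq start of Gpm6a had no match. Windows were found for 5 of the 8 members (6 windows), and GGAATG was in 3 of these 6 windows and in 14.7% of all 32851 windows. GCGNGGG, a core shared by Wt1 and the Egr factors, was in the window of Bnc1, where matches overlap each other, and in 23.2% of all windows. TATAAA was in the other window of Gpm6a and in 13.6% of all windows. CANNTG was in windows of Upk3b, Gpm6a and Muc16 and in 72.3% of all windows. Both strands were searched for these 4 motifs, which were chosen after the levels were known. A match is a description of the letters and not a binding site.

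The members did not change by the same amount, and the mixture of mesothelial UMIs differed between the groups. Msln made up 30.1%, 28.4% and 22.4% of the UMIs of the 8 genes in the LC tumors (95% Wilson intervals 21.7 to 40.1, 24.4 to 32.9 and 18.3 to 27.2). In the IP + LC tumors its share was 54.2%, 54.9% and 42.5% (44.8 to 63.3, 45.2 to 64.2 and 34.0 to 51.4). The share was higher in all 3 IP + LC tumors than in all 3 LC tumors, and these intervals cover counting error only. Matches of at least 81 nucleotides to 47 other genes together covered 163 bases of a short Msln transcript. Whether reads from these genes were counted for Msln was not tested. Measured within a library, and so free of any scaling between libraries, 1.75, 2.03 and 1.53 Msln UMIs were counted per Upk3b UMI in the LC tumors and 5.27, 7 and 6.38 in the IP + LC tumors. Per Upk1b UMI the numbers were 1.12, 1.33 and 1.29 against 4.46, 3.29 and 2.55. Per Gpm6a UMI they were 1.65, 1.45 and 0.833 against 4.83, 5.09 and 2.32. For each of these 3 ratios, which were chosen after the values were seen, the groups did not overlap, and the two-sided exact permutation test gave p = 0.1 (0.1 after Benjamini-Hochberg adjustment over the 3), the smallest value that 3 tumors against 3 allow.

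**Figure D2:**
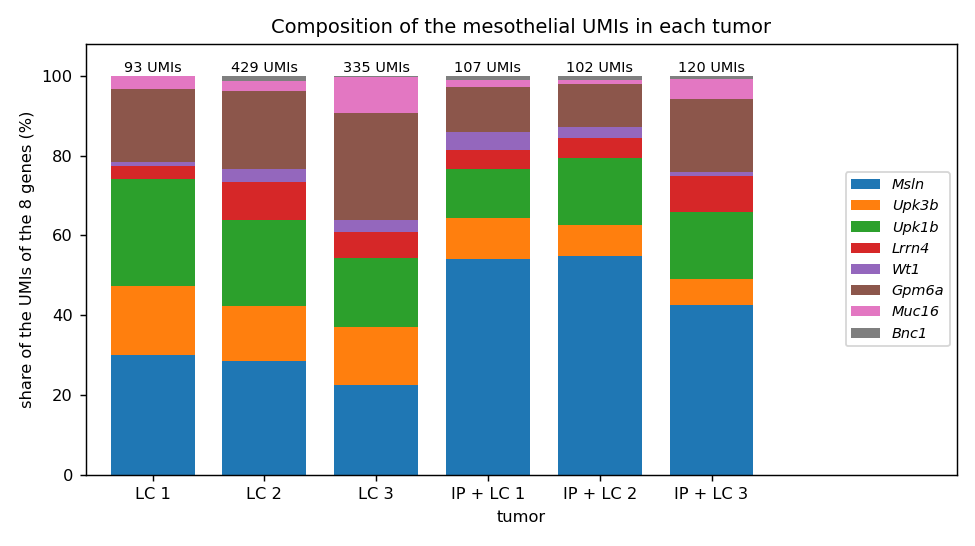
Share of each gene among the UMIs of the 8 mesothelial genes (y axis, percent) in each tumor (x axis), with the number of UMIs above the bar. Msln takes 22.4% to 30.1% of the UMIs in the LC tumors and 42.5% to 54.9% in the IP + LC tumors.

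Of the other genes reported in mesothelium, most but not all were called lower. A list of 12 such genes held 11 that were present here and tested (Calb2 was not analysed here), and 9 were called lower and 0 higher in the IP + LC group (19.6% of all tested genes were called lower and 16.8% higher). With IP + LC replicate 2 left out, 5 were called. The count is subject to the same limit as that of the members, since only 6 of the 11 genes reached the minimum of the filter in every IP + LC tumor. Cldn15 reached it in 0 IP + LC tumors, Nkain4, Prg4 and Pkhd1l1 in 1 and Rspo1 in 2. Of the 6, Igfbp6, Slpi, Aldh1a2 and Efemp1 were called lower, and Igfbp5 and Pdpn were not. The median log2 fold change was -0.97 over these 6 genes and -1.45 over all 11, to which the same limit applies, beside 0.02 for all tested genes. Nkain4, a membrane protein that interacts with the sodium pump, fell most, from 62.1 ± 3.23 to 6.35 ± 2.05 CPM (SD, n = 3), with 35, 84 and 71 UMIs in the LC tumors and 7, 9 and 12 in the IP + LC tumors. Its log2 fold change was -3.29 ± 0.26 (SE, edgeR adjusted p = 0.000522).

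Several of these genes encode secreted proteins. Igfbp6, which binds insulin-like growth factors, had a log2 fold change of -2.77 (edgeR adjusted p = 0.000948), Slpi, a protease inhibitor that airway cells also release, had -1.78 (0.00277), and Rspo1, an enhancer of Wnt signaling, had -1.45 (0.0241). The surface lubricant gene Prg4 had -1.37 (0.0949), and the matrix gene Efemp1 had -0.83 (0.023). Among the membrane and cytoplasmic proteins, the claudin gene Cldn15 had -2.23 (edgeR adjusted p = 0.00408), Pkhd1l1 -2.28 (0.0168) and Aldh1a2, which makes retinoic acid, -1.11 (0.0218). For Prg4 and Pkhd1l1 the groups overlapped, with LC replicate 1 at 3.44 and 6.89 CPM and IP + LC replicate 3 at 7.99 CPM for both. Not called were Igfbp5, which fibroblasts also express, with a log2 fold change of -0.61 (edgeR adjusted p = 0.118), and Pdpn, with 177 ± 89.7 and 161 ± 47.0 CPM (SD, n = 3). Pdpn, encoding podoplanin, is shared with type 1 alveolar cells and fibroblasts. The difference of its log2 values was -0.16, with a 95% interval (1.96 SE on each side) from -0.90 to 0.59.

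The 4 simple keratins are shared by mesothelium and lung epithelium. Krt19 (log2 fold change -1.59, edgeR adjusted p = 0.00336), Krt7 (-0.79, 0.0737) and Krt18 (-0.78, 0.0409) were called lower, and for Krt7 the groups overlapped. Of all tested genes, 19.6% were called lower. The median of the 4 was -0.78, and 1 keratin was called when LC replicate 3, IP + LC replicate 1 or IP + LC replicate 2 was left out. Krt8 averaged 172 ± 73.3 CPM in LC and 211 ± 10.3 CPM in IP + LC tumors (SD, n = 3) and was not called (0.31, adjusted p = 0.463). Of 14 family relatives of the members, such as other uroplakins, mucins and Lrrn genes, 3 were tested. Gpm6b and the membrane mucin gene Muc1 (-1.61, edgeR adjusted p = 0.0011) were called lower, and Muc4 was not (-0.11, adjusted p = 0.836), and 1 relative was called without LC replicate 2 or IP + LC replicate 3. The median of the 3 was -1.31. Lrrn1 was at 0 UMIs in all tumors, as was Wt1os.

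**Figure D3:**
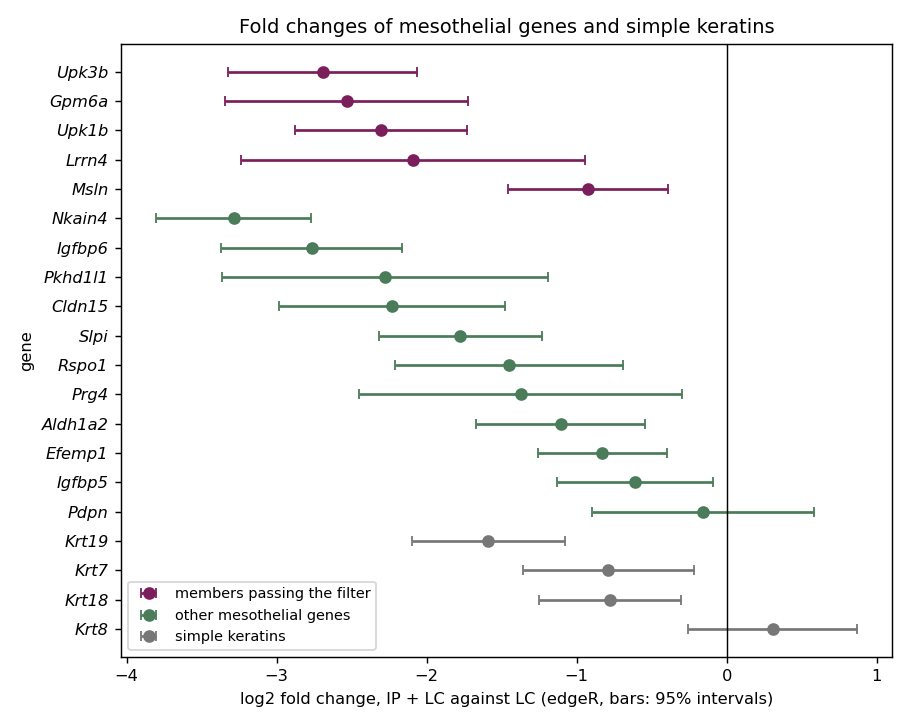
Log2 fold changes of IP + LC against LC (x axis) for the 5 tested members, the 11 other mesothelial genes and the 4 simple keratins (y axis). Bars are 95% intervals of 1.96 edgeR standard errors on each side, which is narrower than the quasi-likelihood test implies. All 5 members lie between -2.69 and -0.92, and the interval includes 0 for Pdpn and Krt8.

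Markers of endothelium, alveolar and airway cells were mostly called lower in these tumors too, and fibroblast markers went both ways. Of all tested genes, 19.6% were called lower and 16.8% higher. All 6 endothelial markers were called lower, with sums of 1080 to 1820 CPM in the LC tumors and 399 to 473 CPM in the IP + LC tumors. Of 6 type 1 alveolar markers 5 were called lower (2280 to 4950 against 916 to 1320 CPM, with 3 called without IP + LC replicate 2 or 3), as were 6 of 6 type 2 alveolar markers and 6 of 6 airway secretory markers (50300 to 59400 against 3470 to 7430 CPM). No marker of these 4 lists was at 0 in all tumors. For the type 1 markers Cldn18 and Akap5 the groups overlapped. Of 6 fibroblast markers, 4 were called lower and Col1a1, a collagen chain, was called higher (1.42, edgeR adjusted p = 0.00844). Col3a1 was not called (0.59, adjusted p = 0.106), although it was at 330 to 544 CPM in the LC tumors and 556 to 712 CPM in the IP + LC tumors. The sum of the fibroblast markers was 1290 to 1720 CPM in the LC tumors and 1200 to 1360 CPM in the IP + LC tumors. Chest wall muscle lies next to the pleura, and 5 skeletal muscle markers summed to 26.3 to 34.5 CPM against 9.34 to 13.8 CPM, with only Ckm tested and called lower (-1.45, adjusted p = 0.0377). The median log2 fold changes of these lists were -1.69 for endothelium, -1.59 for type 1 and -1.92 for type 2 alveolar cells, -3.28 for airway and -1.08 for fibroblasts, beside 0.02 for all tested genes. The call for Ckm was lost without LC replicate 2 or IP + LC replicate 2. The part of these other cells in the mesothelial difference was not tested.

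Counted against endothelial UMIs, the outcome differed with and without Msln. The LC tumors had 149, 185 and 180 UMIs of the 8 genes per 1000 UMIs of the 6 endothelial markers, and the IP + LC tumors had 182, 149 and 184, so that the ranges overlapped almost fully with Msln included. Without Msln, the other 7 genes had 104, 132 and 140 per 1000 endothelial UMIs in LC tumors against 83.2, 67.3 and 106. These were lower in 2 of the 3 IP + LC tumors than in every LC tumor, and IP + LC replicate 3 lay just above LC replicate 1. Per 1000 type 1 alveolar UMIs, the 8 genes had 51.8, 147 and 57.3 in the LC tumors, of which replicate 2 was the highest, and 71.9, 65.0 and 65.9 in the IP + LC tumors. Without Msln the values were 36.2, 105 and 44.5 against 32.9, 29.3 and 37.9, so that LC replicate 1 fell within the IP + LC range and the other LC tumors above it. Per 1000 type 2 alveolar UMIs there were 4.58, 8.21 and 6.52 against 6.84, 9.57 and 9.22, again with overlap, and without Msln 3.20, 5.88 and 5.06 against 3.13, 4.32 and 5.30.
Against airway markers the groups did not overlap, and against fibroblast markers the result depended on the collagen genes. Per 1000 airway secretory UMIs there were 3.18, 5.66 and 5.63 mesothelial UMIs in the LC tumors and 12.3, 17.1 and 11.7 in the IP + LC tumors, and without Msln 2.22, 4.05 and 4.37 against 5.64, 7.73 and 6.74. Per 1000 fibroblast UMIs there were 124, 195 and 176 against 57.0, 48.8 and 72.8, without overlap, and without Msln 86.7, 140 and 137 against 26.1, 22.0 and 41.8. Col1a1 and Col3a1, another collagen chain, held most of the fibroblast UMIs in the IP + LC tumors, with 463 to 754 and 799 to 982 UMIs against 48 to 210 and 316 to 454 in the LC tumors. Per 1000 UMIs of the other 4 fibroblast markers (Pdgfra, Dcn, Lum and Tcf21), a choice made after the values were seen, there were 241, 280 and 257 mesothelial UMIs in the LC tumors and 275, 267 and 310 in the IP + LC tumors, and the groups overlapped. Without Msln these were 168, 200 and 199 against 126, 120 and 178, so that 2 of the 3 IP + LC tumors lay below every LC tumor and IP + LC replicate 3 lay above LC replicate 1. These ratios do not depend on a scaling between libraries and are given as a description without a test.

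**Figure D4:**
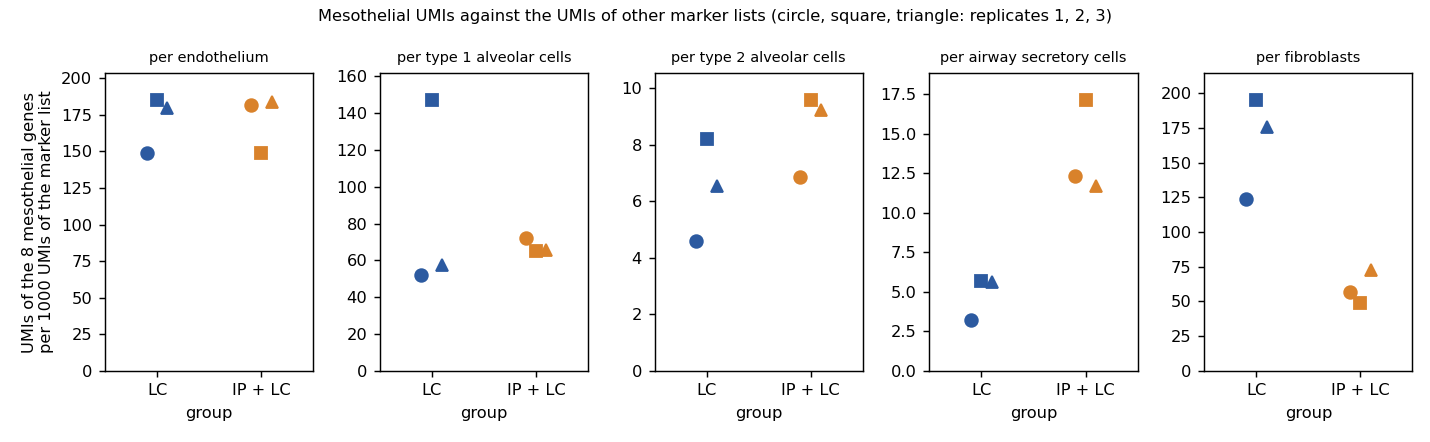
UMIs of the 8 mesothelial genes per 1000 UMIs of 6 markers each of endothelium, type 1 and type 2 alveolar cells, airway secretory cells and fibroblasts (y axes), by group (x axes), with 1 point for each tumor. For endothelium the ranges are 149 to 185 and 149 to 184 with Msln included, while the IP + LC tumors lie above the LC tumors for airway secretory cells. They lie below them for the 6 fibroblast markers, but the ranges overlap (241 to 280 and 267 to 310) for the 4 markers other than Col1a1 and Col3a1.

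The genes with the pattern most like Msln over the 6 tumors were sought by Pearson's r of log2(CPM + 4) among 9364 tested genes with at least 100 UMIs. They were Gm20300 (r = 0.994), Ogdh (0.989), Cpq (0.987), Unc45b (0.985) and Pgap2 (0.984), none of them on the marker lists, and the r values include the difference between the groups. Unc45b, a chaperone of muscle myosin, was called lower (-1.79, edgeR adjusted p = 0.0139), as was Gm20300 (-0.69, adjusted p = 0.092). Ogdh, an enzyme of the citric acid cycle, was at 153 ± 9.19 and 137 ± 3.42 CPM (SD, n = 3) and was not called. The other tested members had an r with Msln of 0.880 for Gpm6a, 0.891 for Upk1b, 0.909 for Upk3b and 0.920 for Lrrn4. Of the 9364 genes, Upk3b ranked 310, Upk1b 464 and Gpm6a 557, so that many genes outside the lists followed Msln more closely, and Lrrn4 had too few UMIs to be ranked.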

How the data were processed

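Tumor RNA of 3 LC and 3 IP + LC mice was sequenced by bulk RNA barcoding with UMIs of 10 nucleotides. Per the labels and the study's methods, the authors used UMI-tools 1.1.1, Trim Galore 0.6.7, HISAT2 2.2.1 on GRCm38 and featureCounts 2.0.1, and deposited unnormalized UMI counts per gene, 1 table per tumor. The gene annotation and whether counting was by strand are not given in the sources used here. The submitters' notes also name DESeq2.

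From these counts, edgeR 4.0.16 in R 4.3.3 was run with filterByExpr (minimum count 10, minimum total 15), TMM factors of 0.905 to 1.07 and the quasi-likelihood test between the groups without a block, over 11240 genes with Benjamini-Hochberg adjustment and a limit of 0.1, the study's own. CPM use the effective library sizes. Alternatives were other scalings, filters, DESeq2 1.42.0, limma voom (limma 3.58.1), a replicate block, a limit of 0.05 and leaving out each tumor. The fit without a filter served Wt1, Muc16 and Bnc1.

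The mesothelial genes, the marker lists (other mesothelial genes, keratins, family relatives, alveolar type 1 and 2, airway secretory, endothelium, fibroblasts, skeletal muscle) and the rule for likeness to the member with the most UMIs were chosen with earlier results of these data known. Genes were named if they were members, genes of these lists with at least 10 UMIs in every tumor of a group, or among the 5 most like Msln, and others were chosen after their values were seen. Coordinates are from GENCODE M21 on GRCm38. A blastn 2.17.0+ search sought matches to other genes of at least 81 nucleotides and 95% identity. They were found in only 1 short transcript of Msln and in Bnc1. In the Msln transcript, matches to 47 other genes together covered 163 of 590 bases. The other Msln transcripts had 0 matched bases, and in Bnc1 99 bases were matched, where 4833418N17Rik lies antisense. Nothing says whether the tumors differ in batch, and p-values measure the spread between these samples only.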

Additional observations from a re-analysis of the deposited data

How the results depend on the processing

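Leaving out single tumors changed the most. The number of members called, 5 in the reported fit, was 3 to 6: it was 3 without LC replicate 2 or IP + LC replicate 2, where Msln and Lrrn4 were lost. The log2 fold change lay between -1.10 and -0.61 for Msln and between -2.57 and -1.47 for Lrrn4 without 1 tumor. Upk3b, Upk1b and Gpm6a were called lower in all 14 alternatives run on them, and no member changed its sign in the main test. Over the same fits the number of all genes called lower was 1368 to 3367 (2203 reported, 3367 without LC replicate 1) and called higher 897 to 3324 (1885 reported). The lists ran from 5 to 11 called genes for the other mesothelial genes, 1 to 4 for the keratins, 1 to 3 for the relatives, 3 to 6 for type 1 alveolar cells and 0 to 2 for skeletal muscle. Without a filter, 2 skeletal muscle genes were called. In limma voom, 3180 genes were called higher. With library size only, the median log2 fold change of all genes moved by 0.16 and 41.7% of the calls were lower against 53.9% with TMM, and Msln was at -0.77. With a limit of 0.05, 5 members were called. For Wt1, Muc16 and Bnc1, leaving out tumors without a filter was chosen after seeing the data.

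The titles give the groups the same replicate numbers. With a replicate block, the same number of 5 members was called, Msln at -0.88 (edgeR adjusted p = 0.0825) and Lrrn4 at -1.92 (0.0555), beside 1811 genes lower and 1599 higher. The deviations of same-numbered tumors correlated at 0.026, -0.12 and 0.112, and not every tumor correlated best with its own number. These values gave no sign of pairing, but so few tumors cannot show that it was absent. The 0 to 30 UMIs per tumor of Wt1, Muc16 and Bnc1 limit what can be said of them.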
